A study of Mus musculus with 6 samples.

Results

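Extraembryonic ectoderm is the part of the trophoblast that lies next to the epiblast in the implanted mouse embryo. It was followed here as 335 single cells from mouse embryos of embryonic day 5.0 (E5.0) to E5.5, of 18251 cells kept in these 3 libraries and 21856 in all 6 libraries of the series. Kept cells had 1500 or more genes detected and no more than 15% of UMIs from mitochondrial genes (a UMI, or unique molecular identifier, stands for 1 captured RNA molecule). A kept cell was taken as extraembryonic ectoderm with 2 or more UMIs of Elf5, Cdx2 and Nat8l together, none of Hand1 or Ascl2 and fewer than 3 of the Prl3d genes. It also had to hold fewer than 10 UMIs per 10000 of the endoderm genes Cubn, Lrp2, Dab2 and Amn and fewer than 5 per 10000 of the epiblast genes Pou5f1, Slc7a3, Pim2 and L1td1. The cells of comparison were Hand1 or Ascl2 trophoblast of the same library, which met the same limits but held 2 or more UMIs of Hand1 and Ascl2.

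The cells were thus chosen by their UMIs of these marker genes. The rule found 28, 23 and 284 cells in the E5.0, E5.25 and E5.5 libraries, or 0.509%, 0.570% and 3.26% of the kept cells. Hand1 or Ascl2 trophoblast numbered 759, 877 and 1388 cells at the same stages. Of these, 750, 864 and 859 also held 2 or more UMIs of Elf5, Cdx2 and Nat8l, so the makeup of the comparison differed at E5.5, and its part in ratios that widened there was not tested. All embryos came from B6SJLF1/J females of 7 weeks mated with B6CBAF1/J males, were dissected from the uterus, and were pooled and dissociated with Accumax. No genotype or treatment differed between the libraries. Cells passed a 20 µm filter at E5.5 but not at E5.0 or E5.25, and were spun at a lower force, so handling and the last stage cannot be told apart. Each stage was 1 library, made with 10x Chromium 3' chemistry, so no value below has a replicate error and no test was made between classes or stages. The rule chose both classes by their RNA, and the differences between them are therefore descriptions.

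Trophoblast stem cells reside in the extraembryonic ectoderm, where FGF4 from the epiblast maintains them and the tissue returns BMP4 and proteases that process NODAL. The transcription factors ELF5, CDX2 and EOMES hold the stem cell state, and ELF5 is regarded as a gatekeeper of the trophoblast lineage. Cells that leave this zone switch on ASCL2, needed for the spongiotrophoblast lineage, or HAND1, needed for giant cells, and form the ectoplacental cone and the giant cells that face the mother.

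Promoters of 2 genes tied to the 2 sides of this division are shown because TFAP2C, an AP-2 factor made in both classes, was itself unequal between them. Cdx2 is 1 of the 3 genes that chose the cells, and Phlda2 is an imprinted gene of the ectoplacental cone that was low in them. The stretches are the 250 bases before the RefSeq start of each gene on GRCm38.p6, both on the minus strand, at chr5:147307250-147307499 for Cdx2 and chr7:143502525-143502774 for Phlda2. Capitals mark the AP-2 motif GCCNNNGGC, searched on both strands.
Cdx2: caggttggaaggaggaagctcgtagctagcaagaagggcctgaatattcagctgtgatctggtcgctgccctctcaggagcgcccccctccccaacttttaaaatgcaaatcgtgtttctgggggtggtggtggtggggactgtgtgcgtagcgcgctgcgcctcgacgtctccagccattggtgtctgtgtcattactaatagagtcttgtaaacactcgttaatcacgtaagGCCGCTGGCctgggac
Phlda2: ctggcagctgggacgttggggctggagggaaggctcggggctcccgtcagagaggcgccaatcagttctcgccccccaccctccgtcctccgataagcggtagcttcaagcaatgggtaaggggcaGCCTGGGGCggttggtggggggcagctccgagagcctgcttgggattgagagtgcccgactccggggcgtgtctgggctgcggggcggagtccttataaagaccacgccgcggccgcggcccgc
Each stretch held the motif once, starting at position -16 for Cdx2 and -124 for Phlda2 counted from the gene's start. The motif stood in 13.5% of 27025 RefSeq promoters of this length, in 2 of the 8 matched genes named below as higher and in 3 of the 13 as lower. Motifs for ETS (CCGGAAG), T-box (GGTGTGA) and CDX (TTTATG) factors were also searched, with 0 matches in both stretches. They stood in 7.07%, 3.31% and 11.1% of the promoters, in 1, 1 and 0 of the 8 and in 0, 1 and 2 of the 13. A match is a run of letters, not a measured binding site.

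Rhox5, which the rule did not use, set the cells apart from the embryonic lineages, while the Elf5 values follow from the rule. At E5.0, E5.25 and E5.5 the extraembryonic ectoderm cells held 271, 301 and 373 CPM (UMIs of the gene per 1000000 UMIs of the class) of Elf5, against 2.17, 1.52 and 10.9 CPM in epiblast cells. Rhox5, an X-linked homeobox gene of trophoblast and germ cells, stood at 1826, 2360 and 1866 CPM in extraembryonic ectoderm cells. Epiblast cells held 63.0, 54.8 and 83.7 CPM of it, and visceral endoderm cells 493, 518 and 508 CPM. Among cells that met the rule after 3000 UMIs were drawn from each, Rhox5 was seen in 96.7%, 97.4% and 94.7%. Epiblast cells at that depth showed it in 14.7%, 13.9% and 19.3%, the background beside which those shares are read. The label therefore held for Rhox5 against the embryonic lineages, while Hand1 or Ascl2 trophoblast held less, at 1553, 1671 and 1263 CPM, but also more than those lineages. Most of its cells held both marker sets. Elf5, Cdx2, Nat8l and Rhox5 together summed to 2312, 2829 and 2563 CPM in extraembryonic ectoderm cells. In Hand1 or Ascl2 trophoblast they summed to 1990, 2105 and 1668 CPM. The defining genes were thus not confined to the extraembryonic ectoderm cells. At 3000 UMIs per cell, cells with Hand1 and Ascl2 alone held 1086, 1107 and 775 CPM. Cells with Elf5, Cdx2 and Nat8l alone held 1808, 2129 and 1786 CPM.

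The number of cells that met the rule was highest in the E5.5 library, whose cells held the fewest UMIs. The median extraembryonic ectoderm cell held 12859.5, 18126 and 5567.5 UMIs from E5.0 to E5.5, and the median Hand1 or Ascl2 trophoblast cell 23908, 24354 and 6952.5. A cell read more deeply more easily shows 1 UMI of Hand1 or Ascl2 and drops out. Of 1142, 1183 and 2088 cells with 2 or more UMIs of Elf5, Cdx2 and Nat8l, the demand for no Hand1 or Ascl2 left 47, 36 and 465. Just outside the rule, with a single UMI of Hand1 or Ascl2, lay 44, 39 and 248 cells, and with a single UMI of the 3 defining genes 1, 5 and 114 cells. Just inside, at exactly 2 UMIs of the defining genes, were 2, 0 and 70 cells. At E5.5 those 70 cells held 1616 CPM of Rhox5, 134 CPM of Bmp4 and 308 CPM of Phlda2. The 114 cells with a single UMI of the defining genes held 1264 CPM of Rhox5, 90.9 CPM of Bmp4 and 842 CPM of Phlda2, and the 248 cells with a single UMI of Hand1 or Ascl2 held 1911 CPM of Rhox5, 122 CPM of Bmp4 and 519 CPM of Phlda2.

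The depth was then made equal by drawing 3000 UMIs from each cell before the rule was applied, which left out 6, 18 and 1137 shallower kept cells. The rule then found 120, 116 and 322 extraembryonic ectoderm cells. With every UMI counted it had found 28, 23 and 284, so most of those at E5.0 and E5.25 lay outside the class at full depth. A cell whose Hand1 or Ascl2 UMIs were not drawn could then meet the rule. Values given at equal depth or at 3000 UMIs per cell refer to cells chosen after thinning. Among cells with 2 or more UMIs over both marker sets, Elf5, Cdx2 and Nat8l stood alone in 19.9% [16.8, 23.3], 16.8% [14.1, 19.8] and 20.4% [18.4, 22.5] of cells from E5.0 to E5.5 (exact 95% binomial intervals, counting error only). Without thinning these shares were 3.36%, 2.45% and 14.2%. Both sets occurred in the same cell in 62.0% [58.0, 65.9], 62.0% [58.2, 65.6] and 56.1% [53.6, 58.5] of cells at equal depth. The share with the first set alone had overlapping intervals over the 3 stages. Most cells with 2 or more UMIs over both sets showed UMIs of each set. The part in this of RNA from other cells was not tested. Of all cells deep enough, the extraembryonic ectoderm cells were 2.18% [1.81, 2.60], 2.89% [2.39, 3.45] and 4.25% [3.81, 4.73], so they were still most frequent in the E5.5 library at matched depth.

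**Figure D1:**
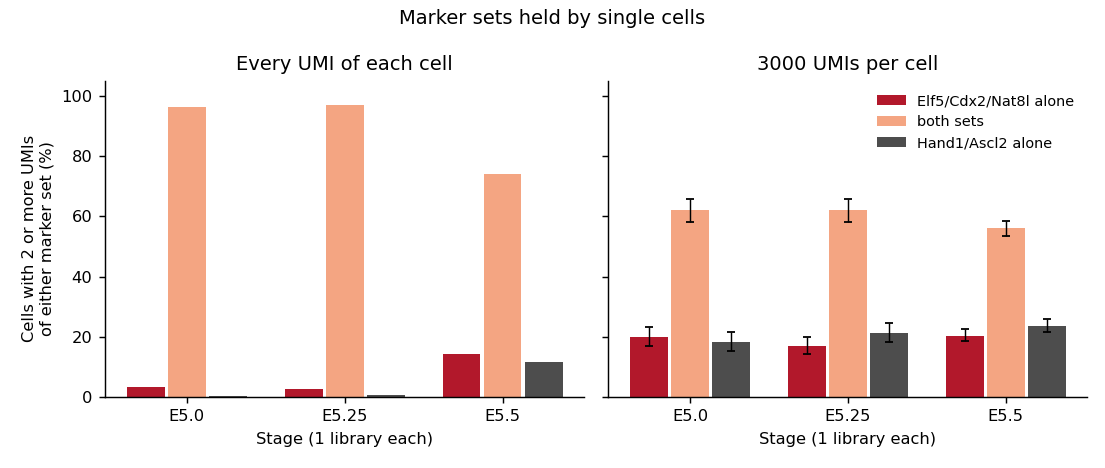
Share of cells (%, y axis) with UMIs of Elf5, Cdx2 and Nat8l alone, of both marker sets, or of Hand1 and Ascl2 alone, among cells with 2 or more UMIs over both sets, by stage. With every UMI (left) the first share was 3.36%, 2.45% and 14.2%, while at 3000 UMIs per cell (right, exact 95% binomial intervals) it lay between 16.8% and 20.4% at all 3 stages.

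With every UMI counted, 14 of 28, 12 of 23 and 78 of 284 extraembryonic ectoderm cells held all 3 defining genes. At equal depth 90.0% [83.2, 94.7], 92.2% [85.8, 96.4] and 84.8% [80.4, 88.5] of extraembryonic ectoderm cells showed Elf5. Cdx2, the homeobox factor of the earliest trophectoderm, was seen in 33.3% [25.0, 42.5], 38.8% [29.9, 48.3] and 40.4% [35.0, 46.0]. Nat8l, which makes N-acetylaspartate, was seen in 36.7% [28.1, 46.0], 28.4% [20.5, 37.6] and 56.8% [51.2, 62.3]. Elf5 thus carried the rule at every stage, and the Nat8l share at E5.5 lay above both earlier intervals. Epiblast cells showed Nat8l in 0.299%, 1.10% and 2.98% at the same depth. At that depth 7 of 120, 7 of 116 and 40 of 322 cells showed all 3 genes, fewer than with every UMI. These shares describe how the rule was met, since the same genes chose the cells.

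Set against Hand1 or Ascl2 trophoblast, few genes were higher in extraembryonic ectoderm cells and more were lower. At E5.5, 14 of 8013 measured genes (0.175%) were higher and 174 (2.17%) lower by 2-fold or more, on log2 ratios of CPM plus 10 among genes at 10 CPM or more in the higher class. At E5.0 it was 61 (0.743%) and 86 (1.05%) of 8213 genes, and at E5.25 it was 59 (0.745%) and 120 (1.51%) of 7924. On ratios of CPM plus 10, Sox3 alone was at least 2-fold higher in all 3 libraries together (1 of 7466, 0.0134%). On the lower side 31 genes (0.415%) were at least 2-fold lower. The added 10 CPM shrinks the ratios of low genes. As plain folds other genes also passed 2-fold in all 3, such as B4galt6 (2.69, 2.13 and 2.20) and Cpm (2.18, 2.42 and 2.13). Counts of genes past 2-fold below use CPM plus 10, while folds are plain ratios of CPM. Against cells with no UMI of Elf5, Cdx2 and Nat8l, of which there were 3, 5 and 233, 92 genes were higher and 138 lower in all 3. With cells thinned to 3000 UMIs before the rule, 28 genes (0.376%) were higher and 130 (1.75%) lower in all 3. The median log2 ratio over all measured genes was 0.08, -0.00 and -0.01 at E5.0, E5.25 and E5.5. The class sums behind these ratios were 398718, 402593 and 1763060 UMIs in extraembryonic ectoderm cells, against 22516279, 26394742 and 12035615 in Hand1 or Ascl2 trophoblast, so counting error at E5.0 and E5.25 comes mainly from the smaller class.

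Sox3 (ENSMUSG00000045179, X:60891366-60893430 on GRCm38), a SOXB1 transcription factor better known from neural tissue, had 153, 186 and 157 CPM in extraembryonic ectoderm cells at E5.0, E5.25 and E5.5. Hand1 or Ascl2 trophoblast held 52.1, 56.6 and 65.8 CPM. The fold was 2.94 [2.23, 3.80], 3.29 [2.57, 4.15] and 2.38 [2.07, 2.73] (exact conditional 95% intervals, counting error only). Sox3 was not confined to this tissue, as epiblast cells held 51.1, 62.5 and 80.7 CPM, but extraembryonic ectoderm cells were the higher of these 3 classes at every stage. Its relative Sox2, a pluripotency and trophoblast stem cell factor, differed in rank: extraembryonic ectoderm cells held 30.1, 29.8 and 40.3 CPM, Hand1 or Ascl2 trophoblast 16.1, 19.6 and 20.5 CPM and epiblast cells 68.0, 61.8 and 57.8 CPM.

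Cyp26a1, which breaks down retinoic acid, had 97.8, 112 and 99.8 CPM in extraembryonic ectoderm cells, against 51.2, 40.1 and 43.6 CPM in Hand1 or Ascl2 trophoblast. Epiblast cells held 2.20, 1.38 and 5.84 CPM of it and visceral endoderm cells 249, 236 and 206 CPM. Socs2, an inhibitor of cytokine signalling, had 90.3, 89.4 and 86.8 CPM in extraembryonic ectoderm cells, against 47.4, 40.3 and 32.5 CPM. Cpm, which codes for carboxypeptidase M, had 52.7, 72.0 and 51.6 CPM, against 24.1, 29.8 and 24.2 CPM. Rbm20, an RNA-binding splicing regulator, had 314, 308 and 256 CPM, against 190, 192 and 154 CPM. Each of these genes was higher in every library, and each was also present in Hand1 or Ascl2 trophoblast. The other named genes on the higher side were B4galt6 (a galactosyltransferase), Snx24, Timm10b, Tmem181a, Prps1 (nucleotide synthesis), Htra1 (a secreted protease), Kdm5a (a histone demethylase), Inpp1, Zfp462 and Ranbp17, with log2 ratios between 0.57 and 1.22.

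Stem cell transcription factors were split. Of 20 listed genes 18 were measured at E5.5, and 0 were at least 2-fold higher while Tfap2c, Tfap2a and Arid3a were at least 2-fold lower, beside 0.175% and 2.17% of all genes. The list's median log2 ratio was -0.02, -0.07 and 0.20 from E5.0 to E5.5, close to that of all genes. Eomes, the T-box factor of trophoblast stem cells, had 396, 338 and 336 CPM in extraembryonic ectoderm cells, against 321, 299.7 and 204 CPM in Hand1 or Ascl2 trophoblast. Its fold was 1.23 [1.05, 1.45], 1.13 [0.944, 1.34] and 1.65 [1.505, 1.805], so at E5.25 the interval held equality. Esrrb, an orphan nuclear receptor that FGF sustains in trophoblast stem cells, had 77.7, 44.7 and 71.5 CPM, against 35.0, 33.8 and 30.9 CPM, and at E5.25 its interval of 0.780 to 2.10 again held equality. At 3000 UMIs per cell the log2 ratios were 0.21, 1.00 and 1.25 for Eomes and 1.64, 1.77 and 1.41 for Esrrb. Both thus stood further above Hand1 or Ascl2 trophoblast at E5.25 and E5.5 among cells chosen after thinning. At E5.25 these were 116 cells in place of 23, against 405 in place of 877. Depth and the choice of cells changed together here and cannot be told apart. Sox21, another SOX factor, had 60.2, 57.1 and 82.2 CPM in extraembryonic ectoderm cells, against 50.6, 44.2 and 37.7 CPM.

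Tfap2c, which acts in trophectoderm and in later trophoblast, ran the other way. It had 125, 109 and 128 CPM in extraembryonic ectoderm cells, against 217, 256 and 373 CPM in Hand1 or Ascl2 trophoblast. It was 1.73-fold [1.31, 2.33], 2.34-fold [1.74, 3.23] and 2.93-fold [2.56, 3.36] lower in extraembryonic ectoderm cells, with levels in those cells that differed little between stages. Gata3, a trophectoderm factor, also stood lower, with 77.7, 37.3 and 69.2 CPM, against 106, 102 and 133 CPM. Pou3f1, a POU factor usually named for the epiblast, had 394, 407 and 462 CPM in extraembryonic ectoderm cells, against 357, 314 and 241 CPM in Hand1 or Ascl2 trophoblast. Epiblast cells held 465, 435 and 380.5 CPM, so this gene did not tell epiblast from extraembryonic ectoderm.

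**Figure D2:**
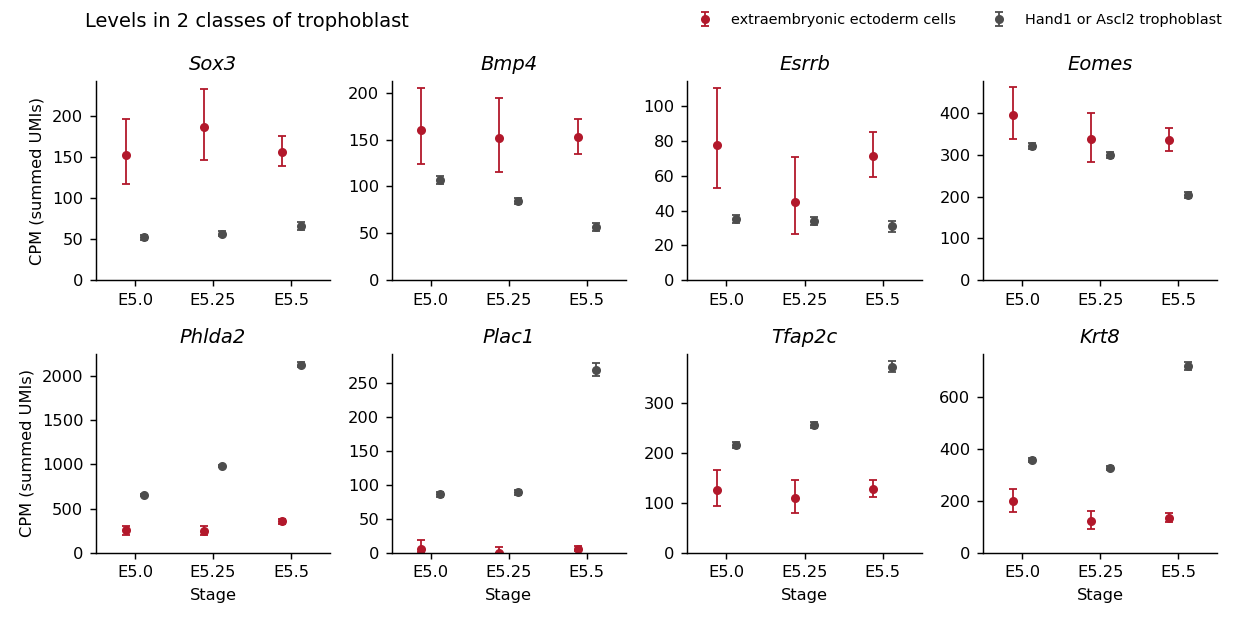
CPM of summed UMIs (y axis, linear from 0) of 8 genes by stage in extraembryonic ectoderm cells and in Hand1 or Ascl2 trophoblast, with exact 95% Poisson intervals for counting error. Sox3 and Bmp4 lay higher in extraembryonic ectoderm cells at all 3 stages, Phlda2, Plac1, Tfap2c and Krt8 lower, and the intervals of Esrrb and Eomes overlapped at E5.25.

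Among signals sent to the epiblast, Bmp4 stood out. It had 161, 152 and 153 CPM in extraembryonic ectoderm cells, against 107, 84.5 and 56.4 CPM in Hand1 or Ascl2 trophoblast, and epiblast cells held 4.97, 5.29 and 8.49 CPM. The fold over Hand1 or Ascl2 trophoblast was 1.51 [1.16, 1.93], 1.79 [1.37, 2.31] and 2.70 [2.34, 3.12]. The level in extraembryonic ectoderm cells differed little with stage, and the wider ratio at E5.5 came with a lower level in the other class. Bmp8b, a second BMP ligand of this tissue, had 80.3, 82.0 and 51.0 CPM, against 67.6, 53.3 and 29.5 CPM.

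The 2 proteases that process NODAL parted. Pcsk6 (PACE4) had 87.8, 49.7 and 70.9 CPM in extraembryonic ectoderm cells, against 68.6, 63.8 and 41.1 CPM. Furin had 20.1, 39.7 and 29.5 CPM in them, against 29.8, 30.2 and 70.5 CPM, and was the gene of the extraembryonic ectoderm list at least 2-fold lower at E5.5. In the NODAL and BMP list Bmp4 and Furin were the genes past 2-fold at E5.5 among 21 measured of 29 listed, and the list medians were 0.13, 0.09 and 0.21. In the WNT list Wnt6 was past 2-fold at E5.5 among 11 measured of 28, at 47.6 CPM in extraembryonic ectoderm cells, against 18.3 CPM in Hand1 or Ascl2 trophoblast. Wnt7b, a ligand typical of this tissue, had 103, 86.9 and 73.2 CPM, against 73.0, 72.0 and 52.4 CPM.

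The FGF and ERK list had 20 of 25 genes measured at E5.5, of which Sos1 was past 2-fold on the lower side, and medians of 0.37, 0.13 and 0.42. On the same ratios Spred1 was the gene past 2-fold at E5.0, on the higher side, and 0 of 20 were at E5.25. The receptor Fgfr2 stood at 258, 328 and 249 CPM in extraembryonic ectoderm cells, against 233, 291 and 203 CPM. Spred1, a feedback inhibitor, had 42.6, 47.2 and 39.1 CPM, against 16.0, 21.8 and 15.4 CPM. Dusp6, the ERK phosphatase, had 45.1, 47.2 and 52.2 CPM, against 32.5, 28.0 and 23.8 CPM. At E5.5 the plain fold of Etv4, an ETS factor downstream of FGF, was 2.34 [1.65, 3.27], and that of the receptor Fgfr4 was 2.43 [1.77, 3.30]. The ligand Fgf4, with 5 UMIs in all in these cells, was seen in 0 of 120, 116 and 322 extraembryonic ectoderm cells at equal depth, which allows shares of cells with a UMI at that depth of up to 2.5%, 2.59% and 0.932% and does not limit expression, while 14.0%, 10.9% and 12.0% of epiblast cells showed it.

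The ectoplacental and giant cell list was the one that differed most between the classes. Of its 28 genes 10 were measured at E5.5, and 8 of these were at least 2-fold lower in extraembryonic ectoderm cells: Cdkn1c, Phlda2, Plac1, Prl7a1, Cdh5, Nrk, Krt7 and Gata2. In all 3 libraries Phlda2, Plac1, Prl7a1, Cdh5 and Gata2 were, of 8 measured, beside 0.415% of all genes. The list medians were -1.35, -1.17 and -2.46. Hand1 and Ascl2 chose the comparison, so genes known to go with them were apt to follow.

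Plac1, an X-linked gene of placental trophoblast, had 2, 0 and 9 UMIs in extraembryonic ectoderm cells, or 5.02, 0 and 5.10 CPM, against 86.0, 88.7 and 270 CPM in Hand1 or Ascl2 trophoblast. It was 17.2-fold [4.74, 142] lower at E5.0, at least 11.9-fold lower at E5.25 with 0 counts taken as 3 over the class, and 52.8-fold [27.8, 116] lower at E5.5. Phlda2, an imprinted gene that restrains placental growth, had 253, 248 and 358 CPM, against 650, 980 and 2125 CPM, and was 2.57-fold [2.11, 3.15], 3.95-fold [3.24, 4.85] and 5.94-fold [5.49, 6.44] lower. Gata2, a factor of giant cells, had 5.02, 17.4 and 11.3 CPM, against 42.5, 51.5 and 147 CPM. Plac1 was thus nearly absent from the class, while Phlda2 was reduced but present at every stage.

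Several genes outside that list, most of them transcription regulators, stood with it. Irx1, an Iroquois homeobox gene, had 2.51, 7.45 and 11.3 CPM in extraembryonic ectoderm cells, against 87.9, 93.2 and 165 CPM, and its neighbour Irx2 had 17.6, 29.8 and 33.5 CPM, against 76.8, 86.2 and 122 CPM. Cited2, a CBP and p300 binding protein needed in the placenta, had 75.2, 112 and 77.7 CPM, against 224, 244 and 327 CPM. Bcor, an X-linked corepressor, had 37.6, 49.7 and 31.8 CPM, against 85.9, 120 and 258 CPM. Marcks, a membrane-bound substrate of protein kinase C, had 52.7, 67.1 and 66.9 CPM, against 198, 198 and 332 CPM. For each of these genes the log2 ratio was below -1 in every library. The remaining named genes on the lower side were Ank2, Crim1, Efhd2, Rhob, Sdc4 and the AP-1 genes Fos, Fosb and Jund, with log2 ratios between -0.93 and -3.30 in every library.

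**Figure D3:**
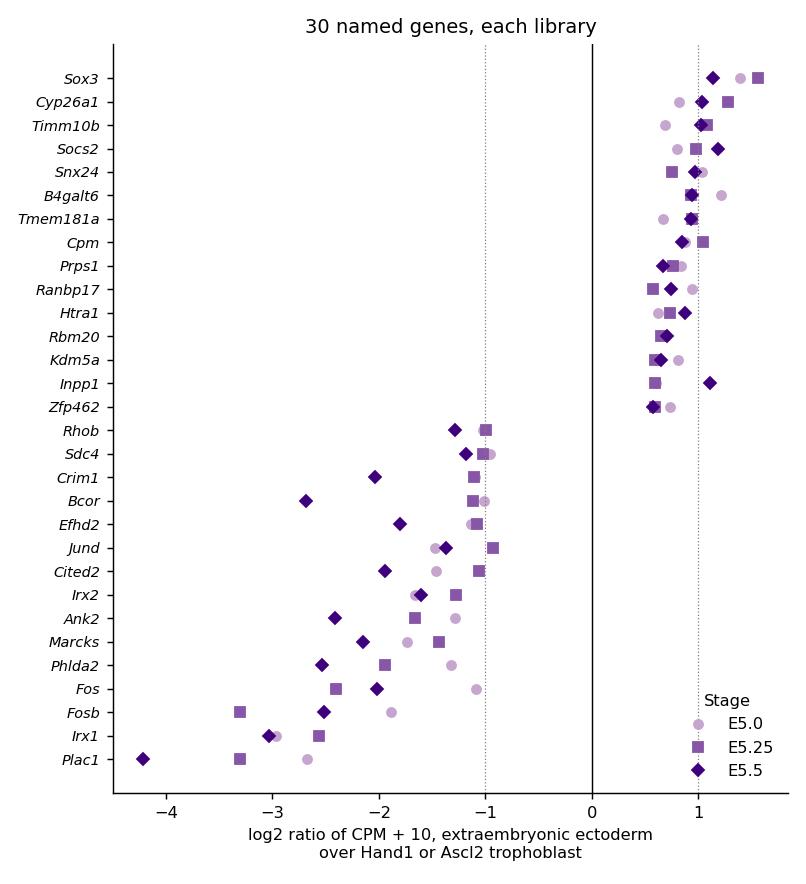
Log2 ratio of CPM plus 10 (x axis) of extraembryonic ectoderm cells over Hand1 or Ascl2 trophoblast for 30 named genes, 1 point per library, with dotted lines at 2-fold. The genes on the lower side reach -4.21 (Plac1 at E5.5), while those on the higher side end at 1.56 (Sox3 at E5.25).

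Keratins and desmosomes followed the same order at E5.5. Krt8, the simple epithelial keratin, had 198, 122 and 134 CPM in extraembryonic ectoderm cells, against 358, 327 and 718 CPM, and was 1.81-fold [1.45, 2.29], 2.68-fold [2.03, 3.63] and 5.36-fold [4.71, 6.13] lower. Krt7, Krt19, Dsp (desmoplakin) and Pkp2 (plakophilin) were the other genes past 2-fold among 22 measured of 23 in the list at E5.5, beside 2.17% of all genes, with medians of -0.20, -0.08 and -0.11. Epcam, an adhesion molecule, was on the opposite side, with 855, 748 and 581 CPM, against 673, 529 and 396 CPM. Cdh1, which codes for E-cadherin, had 584, 460 and 494 CPM, against 422, 447 and 416 CPM.

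Immediate early genes were lower in extraembryonic ectoderm cells. Fos, Fosb and Jun, subunits of AP-1, were at least 2-fold lower in all 3 libraries, of 12 measured, beside 0.415% of all genes. Jund was also past 2-fold at E5.0 and E5.5, and Junb at E5.25 and E5.5. The list medians were -0.41, -0.75 and -0.71. Fos had 113, 57.1 and 65.2 CPM, against 251, 344 and 294 CPM. Egr1, an immediate early gene of the same list, was on the other side, with 55.2, 39.7 and 61.3 CPM, against 26.0, 34.1 and 29.5 CPM.

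Among proliferation and metabolism genes no call was made in most lists. Of 24 DNA replication genes and 22 mitosis genes, 0 passed 2-fold in any library, with medians of 0.16, 0.25 and 0.11 for replication and -0.10, -0.22 and -0.08 for mitosis. With at most 0.745% of all genes higher and 2.17% lower in a library, lists of this size hold few or no calls. Glycolysis, nutrient transport, Polycomb, and acetyl-CoA, aspartate and cholesterol genes also had 0 past 2-fold in every library (16 to 17, 16, 13 to 14 and 23 measured). Within glycolysis the hexokinases differed in direction at E5.5. Hk1 had 90.2 CPM in extraembryonic ectoderm cells, against 42.4 CPM in Hand1 or Ascl2 trophoblast, past 2-fold as a plain ratio only. Hk2 had 101 CPM, against 189 CPM. Of 11 p53 and cell death genes measured at E5.5, 0 passed 2-fold, and Cdkn1c was the gene of 15 measured cell cycle control genes that did.

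Imprinted and methylation genes were also close. Of 15 imprinted genes measured, Phlda2 was past 2-fold in all 3 libraries and Cdkn1c at E5.5. H19, the maternally expressed long RNA, had 755, 887 and 1019 CPM in extraembryonic ectoderm cells, against 696, 814 and 937 CPM. Dnmt3b, a de novo DNA methyltransferase, had 201, 263 and 377 CPM, against 235, 216 and 318 CPM. The methylation and X inactivation list had 0 of 13 genes past 2-fold at E5.5 and Dnmt3a on the lower side in both earlier libraries. Xist, which coats the inactive X, had 286, 273 and 653 CPM, against 333, 487 and 781 CPM.

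Cells were also ordered by their UMIs of both marker sets, as a description. The genes shown were chosen for, or after seeing, their difference between the classes, so their end bins were apt to differ. At equal depth the median extraembryonic ectoderm cell held 2 UMIs of Elf5, Cdx2 and Nat8l in each library. A cell's bin can therefore turn on which UMIs were drawn. At equal depth the cells with 2 or more UMIs over both sets were placed in 5 bins, from Elf5, Cdx2 and Nat8l alone, through more of the first set, equal numbers and more of the second, to Hand1 and Ascl2 alone. At E5.5 Sox3 stood at 182, 108, 81.8, 32.3 and 15.2 CPM over the bins, which held 322, 232, 220, 434 and 372 cells. Bmp4 stood at 159, 93.4, 77.3, 25.3 and 12.5 CPM. Phlda2 stood at 508, 780, 1715, 2702 and 2630 CPM, and Tfap2c at 128, 184, 327, 506 and 513 CPM. Sox3 also went down bin by bin at E5.0 and E5.25. Marcks lay between 63.2 and 164 CPM in the first 3 bins of all 3 libraries and between 465 and 611 CPM in the last pair. Plac1 at E5.0 likewise stood at 16.7, 25.6, 45.0, 392 and 327 CPM over the bins, and Crim1 at E5.5 at 52.8, 92.0, 118, 448 and 433 CPM.

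**Figure D4:**
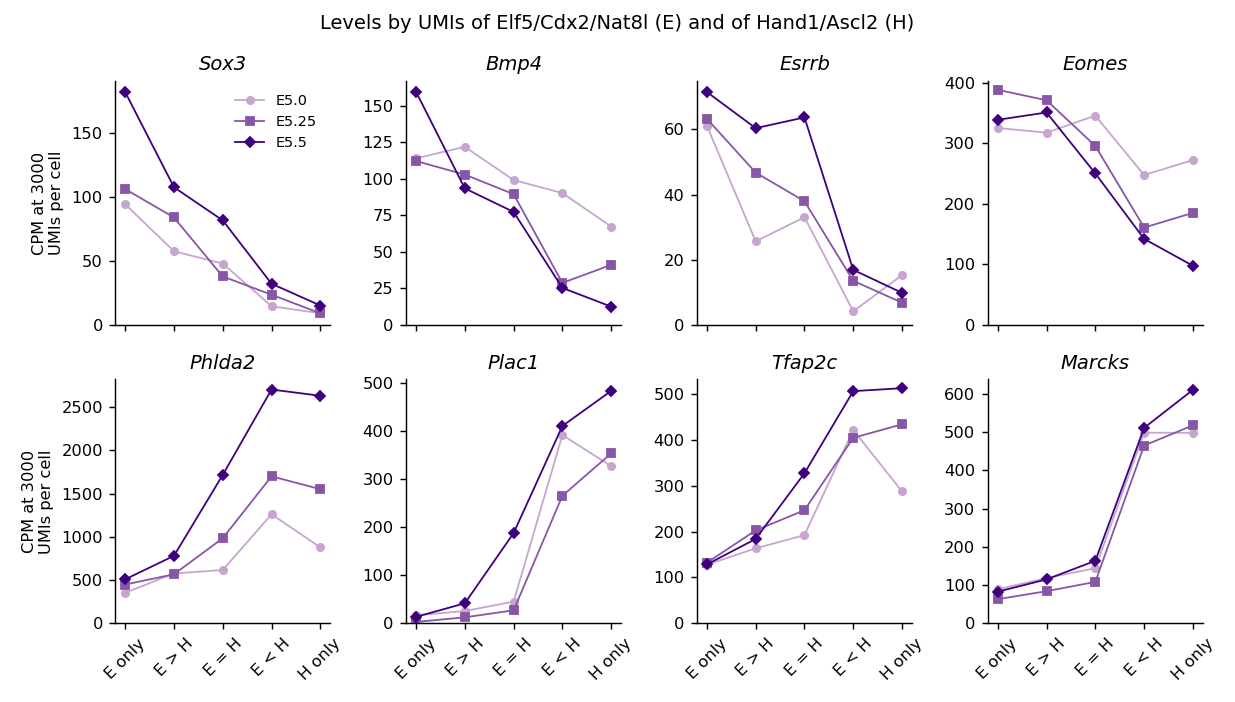
CPM at 3000 UMIs per cell (y axis, linear from 0) of 8 genes over 5 bins of cells, from UMIs of Elf5, Cdx2 and Nat8l alone (E only) to UMIs of Hand1 and Ascl2 alone (H only), with a line per stage. At E5.5 Sox3 stands at 182 CPM in the first bin and 15.2 CPM in the last, and Plac1 at 13.5 and 484 CPM.

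Between stages, the extraembryonic ectoderm cells had 82 of 8314 measured genes (0.986%) higher by 2-fold or more at E5.5 than at E5.0 and 71 (0.854%) lower. Hand1 or Ascl2 trophoblast had 42 (0.537%) and 19 (0.243%) of 7815. From E5.0 to E5.25, both without the filter, 144 of 8285 (1.74%) were higher and 295 (3.56%) lower, although Hand1 or Ascl2 trophoblast, with many more UMIs, had 0 of 7625 genes past 2-fold in either direction (0.0%) in that step. From E5.25 to E5.5 it was 98 (1.23%) and 58 (0.725%) of 8000 in extraembryonic ectoderm cells, against 30 (0.383%) and 9 (0.115%) of 7825. At E5.0 a level of 10 CPM in extraembryonic ectoderm cells stands on about 4 UMIs. The counts over stages are therefore held mainly by genes with few UMIs, and with a minimum of 50 CPM they were 10 higher and 27 lower at E5.5.

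Of genes whose course differed from that of Hand1 or Ascl2 trophoblast by at least 1 on the log2 scale, 3 on the higher side and 25 on the lower met the rule for naming. Id2, an inhibitor of bHLH factors, had 522, 909 and 1039 CPM from E5.0 to E5.5 in extraembryonic ectoderm cells, against 811, 878 and 635 CPM in Hand1 or Ascl2 trophoblast. At equal depth its log2 ratio of E5.5 over E5.0 was 0.25 in place of 0.98. Pdk1, which inhibits pyruvate dehydrogenase, had 15.0, 62.1 and 64.7 CPM, against 26.3, 40.1 and 40.9 CPM, and its ratio was 1.47 at equal depth in place of 1.58. Mdk, a heparin-binding growth factor, had 2, 20 and 94 UMIs, or 5.02, 49.7 and 53.3 CPM, against 19.3, 17.5 and 42.9 CPM, and its ratio was 1.06 at equal depth in place of 2.08. Epiblast cells held 698, 666 and 567 CPM of Mdk, and their part in the Mdk values was not tested.

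Krt7, a keratin of outer trophoblast, stood lowest at the last stage, with 55.2, 19.9 and 5.67 CPM in extraembryonic ectoderm cells from E5.0 to E5.5, against 65.0, 48.7 and 67.8 CPM in Hand1 or Ascl2 trophoblast. Its log2 ratio of E5.5 over E5.0 was -2.06, and -1.66 at equal depth. Metrnl, a secreted protein, had 50.2, 29.8 and 13.6 CPM, against 40.6, 30.4 and 29.7 CPM, with -1.35 and -1.42. The other named genes were Pacsin2, Sema3e, Vwa8, Sel1l, Peak1 and Helz, with ratios between -0.99 and -1.13. At equal depth these 6 stood between -0.76 and 0.12, so the lower values of Sema3e, Peak1 and Helz at E5.5 were not seen there. The cells chosen at equal depth differed from those chosen with every UMI, so depth and the choice of cells cannot be told apart.

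Among the 120, 116 and 322 cells that met the rule at equal depth, Phlda2 was the gene of the ectoplacental list among the 10 most variable. These sets held 353, 448 and 508 CPM of Phlda2, against 253, 248 and 358 CPM in the class chosen with every UMI. The part in this spread of cells that met the rule only after thinning was not tested. Its Fano factor (variance over mean of the UMIs per cell at equal depth) was 2.13, 4.23 and 8.21 at E5.0, E5.25 and E5.5, beside a median of 1.02, 1.01 and 1.02 over all ranked genes. At E5.5 58.1% of the cells showed Phlda2, at a mean of 1.52 UMIs. The other 9 were Pde4d, a cAMP phosphodiesterase, the nuclear RNA Malat1, Xist, Ftl1-ps1, Id2, Tmsb4x, Actb, Mt1 and Ppia, with factors between 1.35 and 4.41. Ftl1-ps1 is a ferritin pseudogene, and its reads may be shared with the parent gene.

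A single cell held most of the basement membrane RNA of the E5.25 class. Lama1, Lamb1, Lamc1, Col4a1 and Col4a2, which code for laminin and collagen IV chains, summed to 100.3, 328 and 164 CPM from E5.0 to E5.5 in extraembryonic ectoderm cells, against 60.7, 56.6 and 175 CPM in Hand1 or Ascl2 trophoblast. This cell, of 24083 UMIs, held 109 of the 132 UMIs (82.6%), and without it the E5.25 sum was 60.8 CPM. The matrix and integrin list had 6 of 16 measured genes at least 2-fold higher at E5.25 with the cell included, but 0 of 13 at E5.0 and 0 of 17 at E5.5. The same cell held 20 of the 26 UMIs of Cubn, Lrp2, Dab2 and Amn in the class. The summed parietal endoderm markers ran from 178 to 402 CPM over the 3 libraries, with the highest value at E5.25, against 133 to 170 CPM in Hand1 or Ascl2 trophoblast.

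Most markers of other cell types were low. Giant cell markers, 3 of which were limited by the rule, summed to between 2.48 and 6.24 CPM in extraembryonic ectoderm cells, against 47.8 to 129 CPM in Hand1 or Ascl2 trophoblast. Visceral endoderm markers, 4 of 8 of which the rule limited in both classes, summed to between 137 and 225 CPM, against 149 to 231 CPM. Visceral endoderm cells, chosen by the same 4 genes, held 9236 CPM or more, so these sums partly follow from the rule. Uterine stroma markers were at 0 in all 3 libraries for 6 of 8 genes, immune markers for 5 of 6, uterine epithelium for 4 of 6 (Ltf, Lcn2, Muc1 and Cldn10), endothelium for 3 of 6 and blood for 3 of 5. The uterine epithelium markers summed to 90.3, 96.9 and 49.3 CPM, nearly all Wfdc2, against 73.1, 71.4 and 55.0 CPM in Hand1 or Ascl2 trophoblast. For the same markers epiblast cells held 80.7, 72.0 and 113 CPM and visceral endoderm cells 14.6, 14.1 and 21.5 CPM. The epiblast markers, 4 of 7 of which the rule limited in both classes, summed to between 534 and 618 CPM, against 405 to 517 CPM. Most of that sum was Pou3f1. Mitochondrial shares had medians of 3.43%, 3.07% and 2.77%, against 3.04%, 3.07% and 2.62%. Between 6 and 12 barcodes were shared by each pair of libraries among kept cells and 0 among extraembryonic ectoderm cells.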

How the data were processed

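The files hold UMI counts per gene and barcode, whole numbers as deposited by the authors, and their headers name Cell Ranger 7.1.0 as the tool. Builds listed in the submitters' processing notes are GRCm38, mm10 and hg38, with no role, and no annotation release is stated. Of 32285 gene identifiers 32158 (99.6%) matched GENCODE M21, which gave the positions. The 3 libraries held 5929, 4552 and 27302 barcodes and 112702098, 90663248 and 80593552 UMIs, and 5504, 4038 and 8709 barcodes were kept.

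Counts were summed per class within each library and scaled to CPM. Ratios are log2 of CPM plus 10, which understates low genes, and folds are plain ratios of CPM. Intervals are exact at 95% (Poisson for a level, conditional binomial for a fold, Clopper-Pearson for a share) and cover counting error only. A fold against 0 counts takes 3 counts over the class. With 1 library per stage no test was made. Counts in a 3' assay were compared between classes, not between genes. The ratio and call functions were tested on simulated data. Python 3.11.15, numpy 2.4.6, scipy 1.17.1, pandas 2.3.3 and scanpy 1.11.5 were used.

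The comparison was planned with Hand1 or Ascl2 trophoblast at 0 UMIs of Elf5, Cdx2 and Nat8l. That left 3 cells at E5.0 and 5 at E5.25 (233 at E5.5), so the limit was dropped and is given as an alternative. A planned list of genes that resemble Elf5 over the cell classes was not made for the same reason. Epiblast cells held at least 10 UMIs per 10000 of the 4 epiblast genes and visceral endoderm cells at least 20 of the 4 endoderm genes, each with fewer than 5 of the other set. No doublet caller was applied beyond the limits on other lineages, and Scrublet was an alternative.

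Named genes were the 15 highest and 15 lowest by the ratio nearest 0 of the 3 libraries, with 1 sign in all 3 and at least 50 CPM in the higher class. Stage genes were up to 8 each way with at least 50 CPM, 1 sign in both steps and a gap of at least 1 from Hand1 or Ascl2 trophoblast. Variable genes were the 10 with the best worst rank by Fano factor. The genes of the lists that are given with values were chosen after their values were seen. The members, the 19 gene lists and the 11 marker lists were chosen with earlier results of these data known. Promoter sequences are from RefSeq, and for the named genes 8 of 15 on the higher and 13 of 15 on the lower side matched a promoter.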

Additional observations from a re-analysis of the deposited data

Results flagged for a closer look

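The rule also found cells in the 3 earlier libraries, which were in no comparison: 27 of 88 kept cells at E3.5, 54 of 969 at E4.5 and 7 of 2548 at E4.75, signals in data outside the comparisons. At E3.5 these cells held 306 CPM of Cdx2 but 1.68 CPM of Nat8l and 1.68 CPM of Rhox5, a makeup unlike that of extraembryonic ectoderm cells of E5.0 and later. At E4.5 they held 348 CPM of Elf5, 325 CPM of Rhox5 and 107 CPM of Bmp4, and at E4.75 they held 198 CPM of Elf5, 618 CPM of Rhox5 and 61.0 CPM of Bmp4. Sox3 had no UMI in the cells of any of the 3 libraries. Embryos of E3.5 and E4.5 were flushed from superovulated females.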

How the results depend on the processing

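The rule gave 335 cells, 1 gene at least 2-fold higher and 31 lower than in Hand1 or Ascl2 trophoblast in all 3 libraries, and 82 higher and 71 lower at E5.5 than at E5.0. A minimum of 2500 genes per cell gave 155 cells, 0 genes higher than in Hand1 or Ascl2 trophoblast, and 114 higher and 121 lower at E5.5 than at E5.0. With 1 UMI as the marker minimum 0 genes were higher and 20 lower than in Hand1 or Ascl2 trophoblast. Comparison cells without Elf5, Cdx2 and Nat8l (3 and 5 cells at E5.0 and E5.25) gave 92 higher and 138 lower. Cells thinned to 3000 UMIs gave 558 cells, 28 higher and 130 lower, and 170 higher at E5.5. Halved limits on other lineages gave 117 lower at E5.5. The mean of each cell's share gave 3 higher, and 135 higher and 233 lower at E5.5. CPM plus 1 gave 5 higher and 67 lower, and 416 higher and 439 lower at E5.5. A minimum of 50 CPM gave 12 lower, and 10 higher and 27 lower at E5.5. Leaving out 1 library gave 51 to 312 cells, 3 to 4 genes higher and 34 to 64 lower, with 64 lower without E5.0 and 48 without E5.25. A 10% mitochondrial limit, a marker minimum of 3 UMIs, Scrublet, median-of-ratios scaling, no CPM minimum and the loss of the E5.25 cell rich in laminin, chosen after seeing the data, moved no count by more than 1.5 times. The 30 named genes kept their sign in 510 of 510 values over 17 alternatives, and list medians in 275 of 323. The named genes had been chosen for 1 sign in all 3 libraries of these data. Leaving out a library, CPM plus 1 and the CPM minimums could not change that sign, so those settings are no check on it. The cause of the moved counts was not tested. No paired analysis was possible because each stage is 1 library and no test was made. With 23 to 28 cells at E5.0 and E5.25, counting error limits genes of few UMIs there.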
